A study of Mus musculus with 6 samples.

Results

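A set of 9 genes of the adrenomedullin and endothelin systems was compared between mouse embryonic fibroblasts (MEFs) that carry an HA-tagged Fbxl10 cDNA and the untransfected parental line. They are Adm, Calcrl, Ramp1, Ramp2 and Ramp3 on the adrenomedullin side and Edn1, Ednra, Ednrb and Ece1 on the endothelin side. They were chosen by name and role, with their differences between these same arrays already known, so every value of that contrast given for them below is a description and not a test. Of the 9 genes, 8 had a probe set annotated to a single gene, among 19936 genes measured in all, and Ednra was not analysed here. Each of the 8 has 1 such probe set. Expression was measured on Affymetrix arrays, 3 with RNA of the Tet-off control line and 3 with RNA of Tet-off HA-Fbxl10 cells. Tet-off lines express a tetracycline-controlled transactivator, and both groups carry it. The HA-Fbxl10 cells were transfected with the cDNA plasmid together with a hygromycin resistance plasmid, and clones were picked for expression of the tagged protein. The controls were not transfected, so effects of transfection, drug selection and the choice of clones cannot be told apart from effects of the Fbxl10 cDNA. The RNA samples are described as independent, but no label ties them to different clones or culture dishes, so standard errors and p-values may reflect technical spread alone.

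Adrenomedullin is a secreted peptide that relaxes vessels and protects endothelial barriers. It binds the calcitonin receptor-like receptor, the product of Calcrl, which reaches the cell surface only with a receptor activity-modifying protein. Ramp2 or Ramp3 gives it the pharmacology of an adrenomedullin receptor and Ramp1 that of a receptor for calcitonin gene-related peptide. Endothelin-1, the product of Edn1, is a strong vasoconstrictor that is cut from its precursor by the membrane protease Ece1 and acts through the receptors encoded by Ednra and Ednrb. Fibroblasts can release both peptides, and contractile fibroblasts respond to endothelin. Fbxl10, now named Kdm2b, is a histone demethylase that binds unmethylated CpG dinucleotides through a zinc finger domain.

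The array values are log2 levels made by robust multi-array averaging (RMA), so a difference of 1 is a doubling. Levels of different probe sets are not comparable with each other, because probes differ in affinity, and each gene is compared only with itself across arrays. As a guide to dim signal, the mean level over all 6 arrays had a lower quartile of 3.75 and a median of 5.36 across genes. Kdm2b, the transfected gene, lay between 7.28 and 7.45 on the control arrays and between 9.58 and 9.77 on the HA-Fbxl10 arrays, a difference of 2.33 ± 0.08 (SE, n = 3 per group). Array correlations were 0.994 to 0.996 within groups and 0.990 to 0.992 between them. Of 12 fibroblast markers measured, the collagen, fibronectin and vimentin genes were bright, while Thy1, Dcn and Lum had mean levels below the median of all genes.

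The promoters of the genes for both peptides are shown because these were the members with higher levels in HA-Fbxl10 cells and because the transfected protein binds CpG. Both sequences are the 250 bases before the annotated start in RefSeq (GRCm38.p6, plus strand, 5′ to 3′), at chr7:110627407-110627656 for Adm and chr13:42301226-42301475 for Edn1, with CpG dinucleotides in capitals.
Adm: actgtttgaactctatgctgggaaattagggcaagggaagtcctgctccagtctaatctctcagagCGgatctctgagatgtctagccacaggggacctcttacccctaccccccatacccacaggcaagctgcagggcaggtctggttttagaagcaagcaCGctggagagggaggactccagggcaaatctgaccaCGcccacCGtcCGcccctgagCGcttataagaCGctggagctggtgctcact
Edn1: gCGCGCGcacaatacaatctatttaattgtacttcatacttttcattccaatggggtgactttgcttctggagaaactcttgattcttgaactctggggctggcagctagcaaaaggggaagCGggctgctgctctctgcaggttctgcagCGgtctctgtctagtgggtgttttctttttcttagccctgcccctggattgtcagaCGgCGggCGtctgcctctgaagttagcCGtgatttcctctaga
These stretches held 7 CpG dinucleotides for Adm and 9 for Edn1. Over the full window of 300 bases, which runs to 50 bases after the start, the counts were 9 and 11. The median of all 32851 windows in the table was 7, with quartiles of 3 and 20, so both counts lay between the median and the upper quartile. Of all windows, 54.2% had fewer CpG than that of Adm and 58.6% fewer than that of Edn1. CpG further into the genes was not counted, and binding of the transfected protein was not tested. The windows of Ece1 ranged more widely, with 28, 26, 21 and 5 CpG at its 4 listed starts. Ednrb and Ramp3 had 15 each, Ednra 8, Calcrl 7 and Ramp1 6. In all, 8 of the 9 genes matched the table, with 11 windows. Ramp2 had no window, so its promoter was not searched.

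A set of 5 short motifs was searched on both strands of these windows. TATAA, the core of the TATA box, was found in the Adm window, 28 and 27 bases before the start on opposite strands, where the matches overlap in the letters ttataa of the sequence above. It was present in 24.9% of all windows and in no other window of these genes. GGGCGG, the GC box, lay 42 bases before the Adm start and was held by 35.7% of all windows. Windows of Calcrl, Ece1 and Ramp3 held it too, and that of Edn1 did not. ACGTG, the core of the hypoxia response element, occurred in the Edn1 window on the minus strand, beginning 22 bases from the start inside the transcript. The 21 bases around it, at chr13:42301489-42301509 on the plus strand of GRCm38.p6, are shown with the match in capitals.
Edn1 match: tctggctgCACGTtgcctgtg
This motif was present in 19.6% of all windows, and besides Edn1 only a window of Ece1 held it among the member genes. The letters AGATAA, bound by factors named after them, lay nearby in the Edn1 window (11.2% of all windows). The AP-1 site, TGANTCA, was in none of the 11 windows (7.81% of all). A match describes letters only, and its absence says nothing about a factor.

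Adm and Edn1 were higher and Ramp2 was lower in HA-Fbxl10 cells, and the other 5 measured genes differed by at most 0.17 on the log2 scale. Adm was 3.58-fold higher, Edn1 2.69-fold higher and Ramp2 2.21-fold lower. In the limma fit over all genes, these 3 lay past an adjusted p of 0.05, that is 2 of 8 higher and 1 of 8 lower, and their groups did not overlap. Over all genes 21.1% lay past that threshold, 10.5% higher and 10.6% lower, and the groups did not overlap for 36% of genes. The members were picked with this contrast known, so nothing is read from their share. The median difference of the 8 genes was 0.03, against -0.0043 over all genes.

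**Figure D1:**
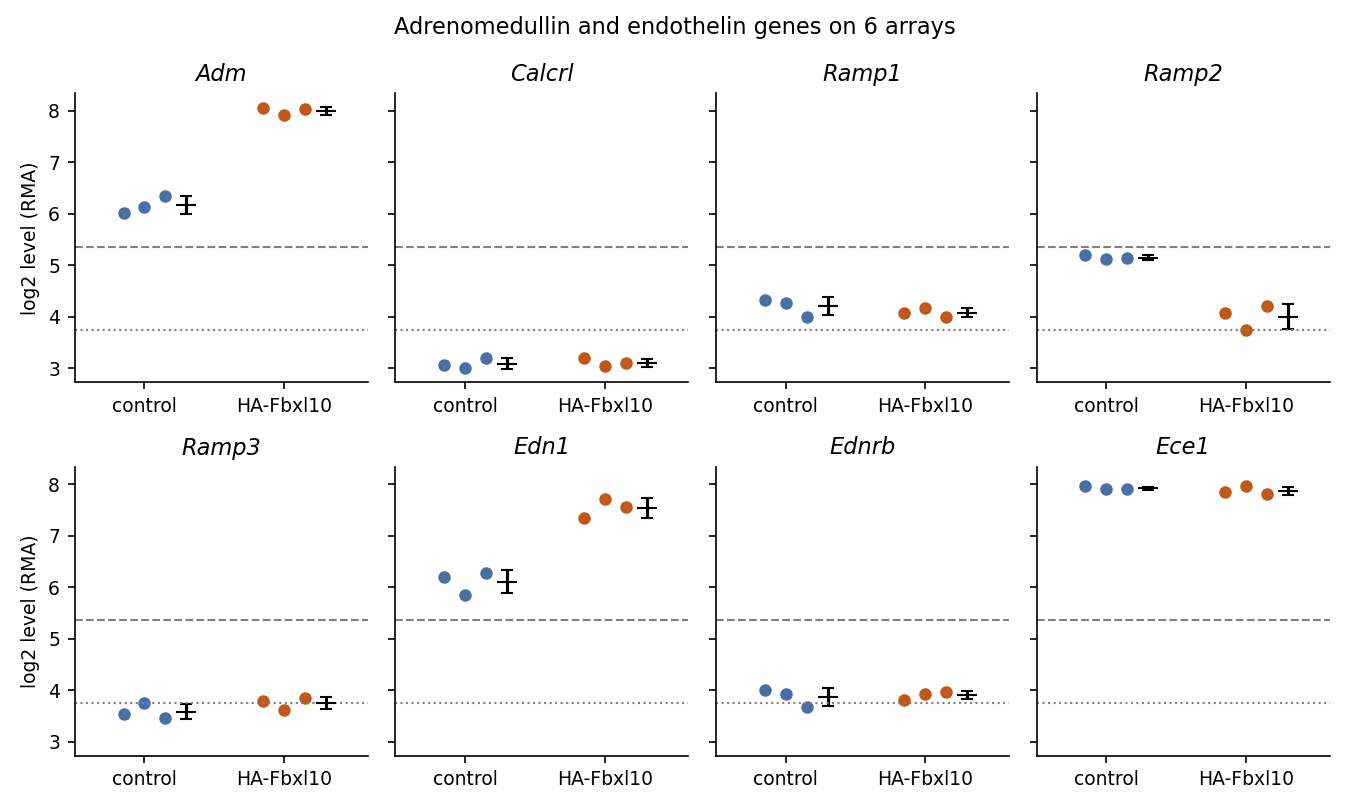
Log2 levels (vertical axis) of the 8 measured adrenomedullin and endothelin genes on the 3 control arrays (blue) and the 3 HA-Fbxl10 arrays (orange), with the mean and SD of each group in black. The dotted line marks the lower quartile (3.75) and the dashed line the median (5.36) of gene mean levels. Adm and Edn1 are higher on all HA-Fbxl10 arrays, Ramp2 is lower on all of them and Calcrl lies below the dotted line on every array.

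Adm, which encodes the adrenomedullin precursor, had log2 levels of 6.01, 6.14 and 6.35 on the control arrays and 8.05, 7.92 and 8.05 on the HA-Fbxl10 arrays. Every HA-Fbxl10 array was above every control array. The group means were 6.17 ± 0.17 and 8.01 ± 0.08 (SD, n = 3 each), a difference of 1.84 ± 0.09 (SE). Among all 19936 genes this was the rise of rank 11. Both levels lay above the median of all genes.

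The receptor gene showed no such difference. Calcrl, the receptor gene, lay at 3.07, 3.00 and 3.21 in control cells and 3.19, 3.04 and 3.10 in HA-Fbxl10 cells. These values overlapped, and all 6 were below the lower quartile of genes, a range in which RMA values do not tell signal from background. The difference was 0.02, with a 95% interval of -0.16 to 0.19.

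Ramp2 encodes the partner that turns the calcitonin receptor-like receptor into an adrenomedullin receptor. Its levels were 5.20, 5.12 and 5.13 on the control arrays and 4.08, 3.74 and 4.20 on the HA-Fbxl10 arrays. All HA-Fbxl10 arrays were below all control arrays, and replicate 2 was the lowest. The means were 5.15 ± 0.04 and 4.004 ± 0.24 (SD, n = 3 each), and HA-Fbxl10 minus control was -1.15 ± 0.11 (SE), the fall of rank 82. The HA-Fbxl10 spread was several times that of the controls, and its levels came close to the lower quartile, so the size of the difference is less certain than its direction. Without HA-Fbxl10 replicate 2 the difference was -1.01.

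The other 2 accessory protein genes differed less. Ramp1, whose product makes the receptor for calcitonin gene-related peptide, lay at 4.33, 4.27 and 4.003 in control cells and 4.07, 4.17 and 3.996 in HA-Fbxl10 cells. Ramp3, the alternative adrenomedullin partner, lay at 3.54, 3.75 and 3.47 in control cells and 3.78, 3.62 and 3.85 in HA-Fbxl10 cells. The groups overlapped for both genes, with differences of -0.12 (95% interval -0.34 to 0.09) for Ramp1 and 0.17 (-0.04 to 0.37) for Ramp3. Ramp1 lay below the median of all genes on every array and Ramp3 lay close to the lower quartile on all arrays.

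Edn1, the gene of the endothelin-1 precursor, had levels of 6.21, 5.86 and 6.27 on the control arrays and 7.34, 7.72 and 7.57 on the HA-Fbxl10 arrays. The groups were again fully separate, with control replicate 2 the lowest array and HA-Fbxl10 replicate 2 the highest. Group means of 6.11 ± 0.22 and 7.54 ± 0.19 (SD, n = 3 each) gave a difference of 1.43 ± 0.13 (SE), the rise of rank 25 among all genes. Both groups of Edn1 varied more than the HA-Fbxl10 group of Adm.

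Ece1, the protease that releases active endothelin, lay at 7.96, 7.91 and 7.91 in control cells and 7.85, 7.97 and 7.81 in HA-Fbxl10 cells. These values overlapped within a narrow range, well above the median of genes. The difference was -0.05 with a 95% interval of -0.20 to 0.10, so a change of the size seen for Edn1 lies outside that interval. Ednrb, the receptor gene that binds all endothelins with like affinity, lay at 3.998, 3.92 and 3.67 in control cells and 3.81, 3.93 and 3.96 in HA-Fbxl10 cells. Its groups overlapped near the lower quartile of genes, with a difference of 0.04 (95% interval -0.17 to 0.24).

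Other genes of the calcitonin peptide family and of peptide processing were taken from a list of 10, of which 9 were measured. This list and those below were drawn up with earlier results of these data known, so nothing is read from their shares called. Limma called 2 higher and 1 lower, and 6 did not pass, against the 21.1% of all genes given above, and the list's median difference was -0.0076. The largest change was in Mme, which encodes neprilysin, a membrane peptidase that degrades many small peptides, among them adrenomedullin and endothelin. Its levels were 7.43, 7.36 and 7.44 on the control arrays and 5.09, 4.97 and 5.07 on the HA-Fbxl10 arrays. Neprilysin RNA was thus 5.15-fold lower, a log2 difference of -2.36 ± 0.07 (SE, limma adjusted p = 1.38e-07) and the fall of rank 9 among all genes. Pam encodes the enzyme that amidates the end of adrenomedullin and other peptides, a step needed for activity. Pam lay at 9.76, 9.47 and 9.61 on the control arrays and 10.23, 10.28 and 10.10 on the HA-Fbxl10 arrays. It rose by 0.59 ± 0.09 (SE, limma adjusted p = 0.00128), with all arrays of one group above all of the other.

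Crcp, whose product was described as a component of the receptor for calcitonin gene-related peptide and is also a subunit of RNA polymerase III, rose by 0.32 ± 0.09 (SE, limma adjusted p = 0.0309). That call ended under 5 of 14 alternatives, among them those without control replicate 2 (difference 0.23, adjusted p = 0.089), without HA-Fbxl10 replicate 1 (0.0879) or 2 (0.104) and with the shift of neighbouring genes removed (difference 0.16, adjusted p = 0.249). Over all alternatives the adjusted p ran from 0.00714 to 0.249. The 6 genes that did not pass were Adm2, Calcb, Iapp, Calcr, Ackr3 and Ide, with differences from -0.22 for Adm2, the gene of a related peptide, to 0.10 for Calcb. The family's other measured ligand genes, Adm2, Calcb and Iapp, thus had no call, and their levels lay below the median of genes. Calca, the remaining gene of the list, was not measured. The list of 6 other endothelin genes and related proteases had 0 calls by limma and 1 gene, Kel, with an unadjusted p under 0.05. Edn2 and Edn3, which encode the other 2 endothelins, differed by 0.12 and -0.03, and the second converting enzyme gene, Ece2, by 0.15 (95% interval -0.06 to 0.36).

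**Figure D2:**
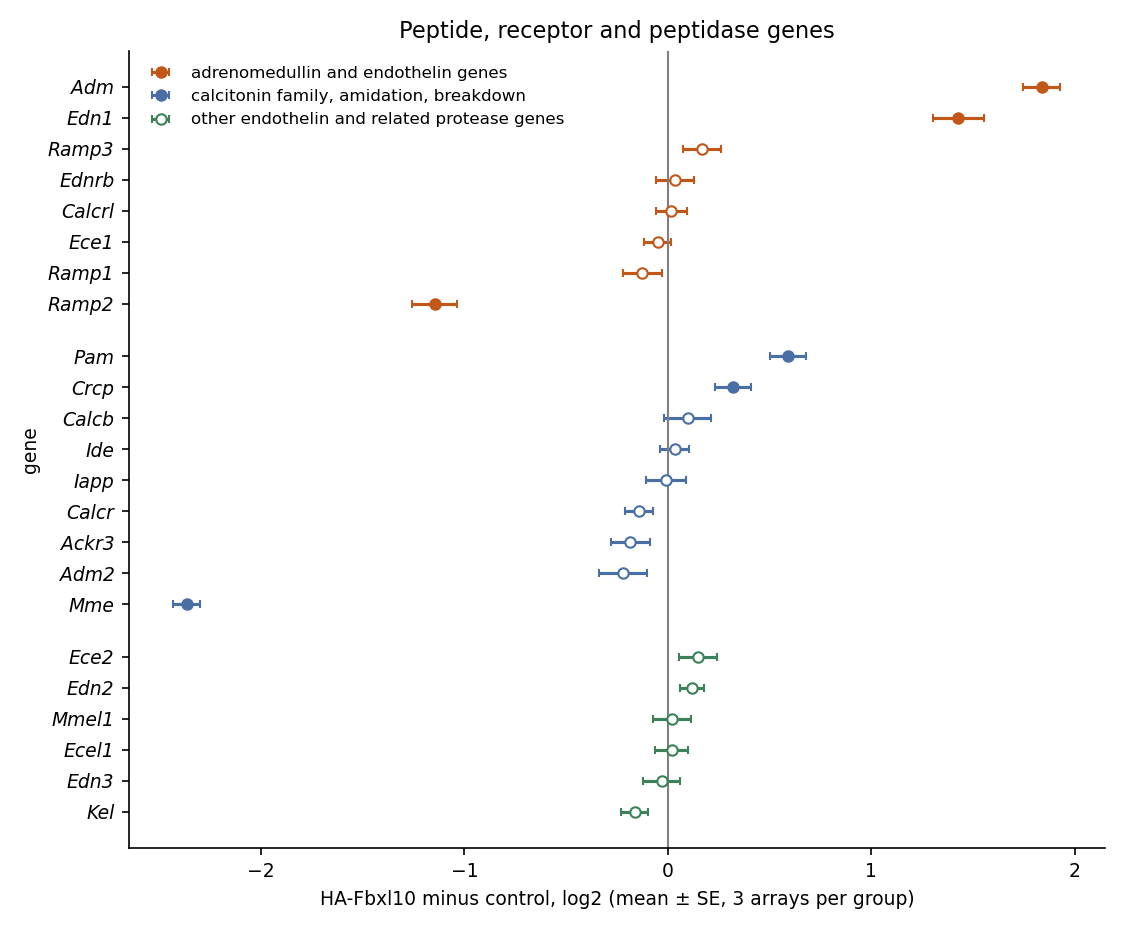
HA-Fbxl10 minus control difference in log2 level (horizontal axis, mean ± SE, 3 arrays per group) for the members (orange), other genes of the calcitonin family, peptide amidation and breakdown (blue) and other endothelin and related protease genes (green). Filled points lie past an adjusted p of 0.05 in the fit over all genes and open points do not. Adm and Edn1 stand at 1.84 and 1.43, Ramp2 at -1.15 and Mme at -2.36, while the endothelin relatives cluster around 0.

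Adrenomedullin receptors signal mainly through Gs and adenylyl cyclase, and endothelin receptors largely through Gq and phospholipase C beta. From a list of 23 G proteins, effectors and regulators, 21 were measured, of which 4 rose, 4 fell and 13 did not pass, with a median difference of -0.02. The share called was 38.1%, beside 21.1% over all genes. Of the 21, 6 had mean levels below the median of all genes, so these shares are not matched for level. The largest rises were those of Rgs2 and Rgs4, whose products speed GTP hydrolysis on G alpha subunits and so damp Gq signals. Rgs2 lay at 6.24, 5.85 and 6.38 on the control arrays and 7.10, 7.26 and 7.05 on the HA-Fbxl10 arrays, which puts HA-Fbxl10 cells 0.98 ± 0.13 higher (SE, limma adjusted p = 0.000609). Rgs4 lay at 6.58, 6.55 and 6.74 and at 7.55, 7.78 and 7.42, or 0.96 ± 0.10 higher (SE, limma adjusted p = 0.000182). The groups were separate for both genes. Control replicate 2 was the lowest array and HA-Fbxl10 replicate 2 the highest for both, as for Edn1.

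The phospholipase C beta genes that changed went in opposite directions. Plcb4 rose by 0.67 ± 0.08 and Plcb3 fell by 0.68 ± 0.07 (SE, limma adjusted p of 0.000548 and 0.000233). Adcy3, an adenylyl cyclase gene, fell by 0.48. Adcy7, another, rose by 0.21 and the arrestin genes Arrb1 and Arrb2 fell by 0.26 and 0.25, with adjusted p of 0.0491, 0.04 and 0.0472 that lay close to the threshold. The calls of these last 3 ended under 8, 7 and 9 of 14 alternatives, among them, for Adcy7 and Arrb2, removal of the running median of neighbouring genes (adjusted p of 0.313 and 0.61). The G alpha subunit genes of the Gq class, Gnaq and Gna11, differed by 0.02 and -0.22, and neither passed. The number that fell was 2 in place of 4 when array medians were subtracted, and also on leaving out control replicate 1, HA-Fbxl10 replicate 1 or HA-Fbxl10 replicate 3.

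Adm is a well-known target of hypoxia-inducible factor, and Edn1 is described as one in endothelial cells. Of 26 genes in a list of this pathway, 3 rose, 8 fell and 15 did not pass, with a median of -0.13. This is 42.3% called, where 21.1% of all genes were, 10.5% higher and 10.6% lower. Of the 26, 4 had mean levels below the median of all genes, so these shares are not matched for level. Those that fell included Slc2a1, the glucose transporter gene (-0.42), Ddit4, an mTOR inhibitor gene (-0.42), Kdm3a (-0.45), Bnip3 (-0.37) and Arnt, the partner subunit of the factor (-0.48). The 3 that rose were Higd1a (0.64 ± 0.07, SE, limma adjusted p = 0.000197), the prolyl hydroxylase gene Egln1 (0.59 ± 0.08, 0.000673) and the collagen hydroxylase gene P4ha1 (0.49 ± 0.07, 0.000758). Vegfa, often induced together with Adm, differed by -0.21 and did not pass. The differences of this list ran from -0.48 to 0.64, and Adm, picked with its rise known, stood at 1.84. A part of this pathway in the rise of Adm was not tested. The call of Kdm3a ended without HA-Fbxl10 replicate 3 (adjusted p = 0.053) or with the running median removed (0.0693), and that of Bnip3 without control replicate 1 (0.0594). The other 3 that fell were Vhl, whose product marks the factor for breakdown (-0.27), Bnip3l (-0.27) and Ero1a (-0.28). Vhl lost its call under 8 of 14 alternatives and stood at 0.04 with the running median removed. Without HA-Fbxl10 replicate 3 or with array medians subtracted the calls of Bnip3l and Ero1a ended (adjusted p of 0.056 to 0.0902), as they did without control replicate 1 for Bnip3l (0.0752) and control replicate 2 for Ero1a (0.0555). The number that fell was 5 when array medians were subtracted, 5 when control replicate 1 was left out and 4 when HA-Fbxl10 replicate 3 was.

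**Figure D3:**
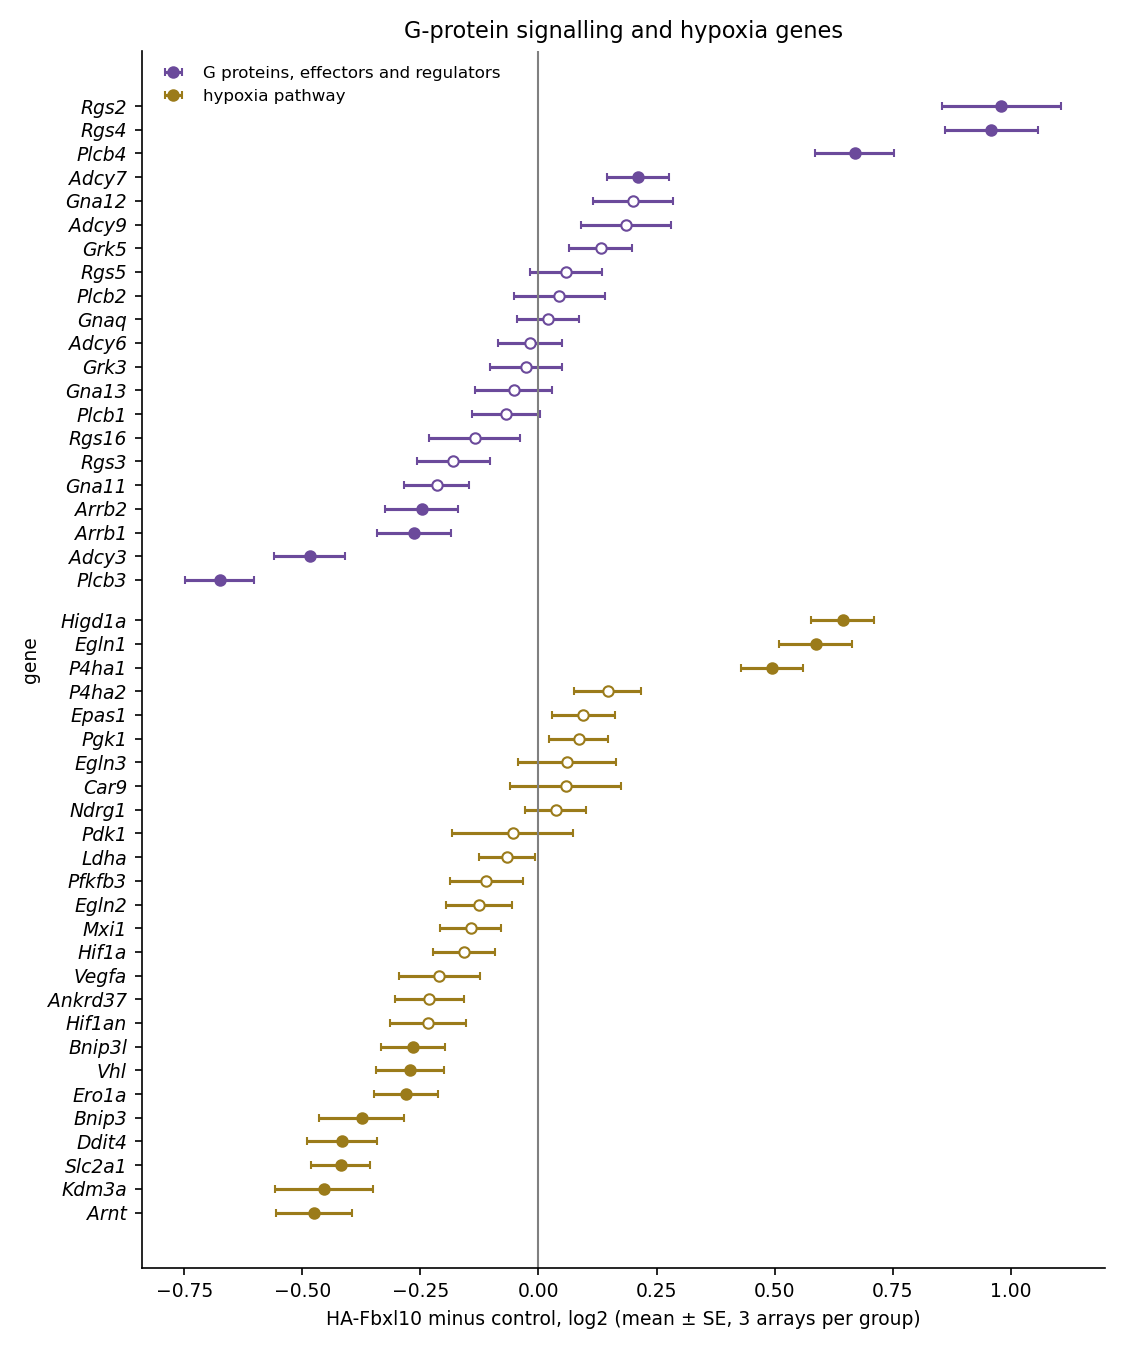
HA-Fbxl10 minus control difference in log2 level (horizontal axis, mean ± SE, 3 arrays per group) for 21 G-protein signalling genes (purple) and 26 hypoxia pathway genes (ochre). Filled points lie past an adjusted p of 0.05 in the fit over all genes. Rgs2 and Rgs4 lead the first list at 0.98 and 0.96, and 8 of the 11 filled points in the second list lie below 0.

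In a list of other vasoactive peptide systems, 2 of 27 measured genes rose, 1 fell and 24 did not pass (median 0.02), so 11.1% were called against 21.1% of all genes. Npy1r, a receptor gene for neuropeptide Y, rose from 4.23 ± 0.05 to 5.44 ± 0.11 (SD, n = 3 each), that is by 1.20 ± 0.07 (SE, limma adjusted p = 1.07e-05). Apln, the gene of the vasodilator peptide apelin, rose by 0.37 ± 0.08 (SE, limma adjusted p = 0.00948). Bdkrb1, a bradykinin receptor gene, fell by 0.37 ± 0.10 (SE, limma adjusted p = 0.0318), a call that ended without any 1 array other than HA-Fbxl10 replicate 3 (adjusted p of 0.0588 to 0.116). Of these 27 genes, 24 had mean levels below the median of all genes, the called genes Npy1r and Bdkrb1 among them. The angiotensin, natriuretic peptide and vasopressin genes were also below it, while Apln and the natriuretic peptide receptor genes Npr2 and Npr3 were above.

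Cells of other types make and receive these peptides, so their markers were looked at beside the members. None of 13 endothelial markers passed in limma (0 past the adjusted threshold, and 0 had an unadjusted p below 0.05), and 12 had mean levels below the median of genes. The mean level of that list was 4.24 to 4.38 on the control arrays and 4.23 to 4.34 on the HA-Fbxl10 arrays. Of 12 smooth muscle and pericyte markers, Mcam (1.45 ± 0.08, SE, limma adjusted p = 3.80e-06) and Cspg4 (0.74 ± 0.07, 0.000117) rose, Notch3 fell by 0.54 and 9 did not pass, with a mean level of 6.99 to 7.06 in control and 7.13 to 7.18 in HA-Fbxl10 arrays. Among 9 melanocyte and Schwann cell markers, all with mean levels below the median of genes, Mitf fell by 0.52, and of the 12 fibroblast markers Col3a1 (-0.79), Col6a1 (-0.44) and Pdgfra (-0.30) fell. The call of Pdgfra ended without replicate 1 of either group, control replicate 3 or HA-Fbxl10 replicate 2 (adjusted p of 0.0703 to 0.0977) and with array medians subtracted (0.0629). The shares called were 0% of endothelial, 25% of smooth muscle and pericyte, 11.1% of melanocyte and Schwann cell and 25% of fibroblast markers. Over all genes the share was 21.1%. The part of such cells in the levels of Adm, Edn1 and Ramp2 was not tested, and fewer cells of a type cannot be told apart from less RNA per cell.

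To place them among their chromosomal neighbours, Adm, Edn1 and Ramp2 were each set beside the 30 nearest genes with levels above the median, 15 on each side. Whether differences cluster along chromosomes in general was not tested. Over all genes, dim ones included, 21.1% lay past the threshold, 10.5% higher and 10.6% lower. The neighbours are all brighter than the median, so nothing is read from their counts. Around Adm on chromosome 7 the median difference was 0.07, with 11 of 30 neighbours higher and 2 lower past the threshold. The nearest on either side, Sbf2 and Ampd3, differed by 0.43 and 0.46, and 1 neighbour, Akip1, moved further than Adm and the other way (-3.07). Around Edn1 on chromosome 13 the median was 0.23, with 13 higher and 3 lower, and none of the 30 exceeded Edn1 in size. Around Ramp2 on chromosome 11 the median was -0.22, with 0 higher and 13 lower, and Ifi35 (-1.23) was the 1 neighbour with a larger difference. With a running median of 31 neighbouring genes subtracted on every array, the differences were 1.71 for Adm, 1.19 for Edn1 and -0.94 for Ramp2, and all 3 stayed past the threshold. Around Mme the neighbours' median was -0.32, with 1 of 30 higher and 20 lower past the threshold. The difference of Mme with the running median removed was -2.02.

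**Figure D4:**
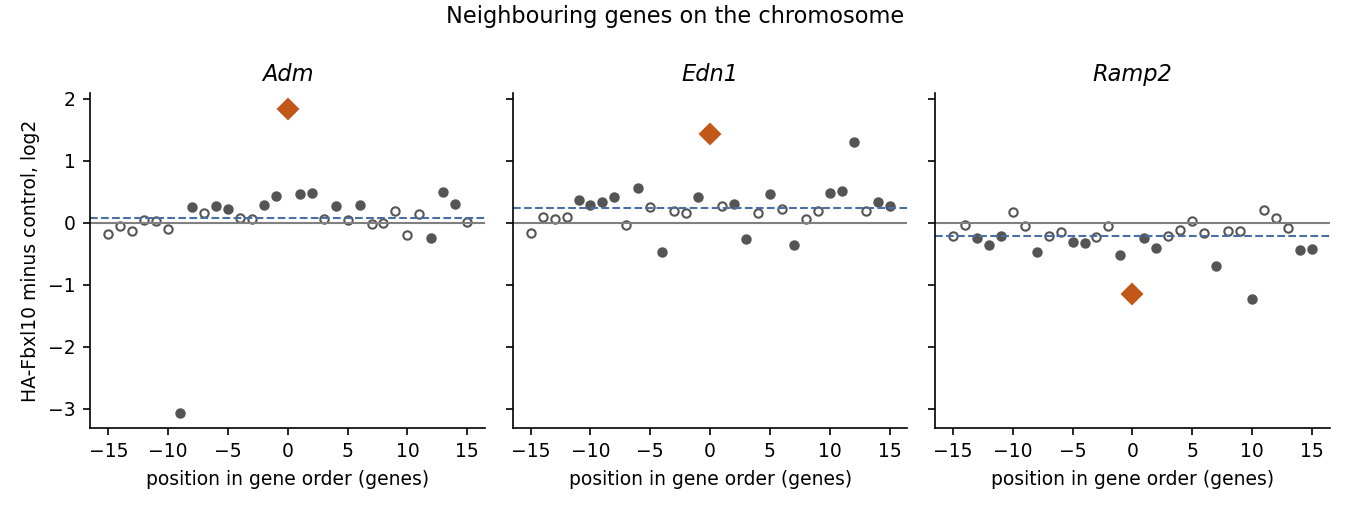
HA-Fbxl10 minus control difference in log2 level (vertical axis) for Adm, Edn1 and Ramp2 (orange diamonds) and for up to 15 neighbouring genes with levels above the median on each side, by position in gene order (horizontal axis). Filled circles lie past an adjusted p of 0.05, and the dashed line is the median of the 30 neighbours. The median is 0.07 around Adm, 0.23 around Edn1 and -0.22 around Ramp2.

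The genes whose pattern over the 6 arrays was most like that of Adm, by Pearson correlation among 9967 other genes above the median level, were Elovl4, Agpat5, Armcx1, Esr1 and Pdcd6ip, with r from 0.998 to 0.9995. Their differences were 0.61, 0.59, 0.79, 0.65 and 0.48, so they followed the same arrays at a smaller scale. For Edn1 the closest were Wdr43, Qrich1, Prps2, Akr1c12 and Txndc16, with r from 0.9987 to 0.9998. Of these, Akr1c12 differed by 1.76, more than Edn1 itself, and Wdr43 by 0.18. With 2 groups of 3 arrays such correlations contain the group difference, and 986 genes reached an r above 0.95 with Adm and 1105 with Edn1.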

How the data were processed

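Gene expression was measured on 6 Affymetrix arrays with 300 ng of total RNA each, per the labels' protocols. The authors deposited log2 expression values per probe set, and the submitters' processing notes name RMA. This method equalises the arrays' distributions and compresses low values. No source used here gives its version and settings, scan dates or the genome build. The platform annotation names 1 gene for 21789 of 35556 probe sets. Symbols were updated through Entrez identifiers (21698) or accessions (3) to the RefSeq table of GRCm38.p6, and 88 were kept as given. The probe set with the highest mean per gene was used, without a filter on dim genes, which left 19936 genes. The test was that of limma 3.58.1, run in R 4.3.3 (lmFit, eBayes, two-sided, Benjamini-Hochberg over all genes, threshold 0.05). It was also run on simulated independent values with effects added to genes above the median level. That run checked the calculation only and says nothing about shared clones or cultures or about dim genes. Array depth has no counterpart here, and the number of arrays limits the precision.

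The members, gene lists, alternatives and motifs were chosen with earlier results of these data known. Named genes were the members, Kdm2b, all measured genes of the calcitonin and endothelin lists, up to 3 called genes with the largest change per other list, and the 5 genes most correlated with Adm or Edn1. Further genes were named after their values were seen. Promoter windows were taken from RefSeq. Of all calls, 49.8% were higher, and 62.9% were higher when array medians were subtracted, which moved the median of all genes from -0.0043 to 0.0505. Other settings were quantile normalisation, leaving out the dimmest 30% of genes, averaged probe sets, trended robust variances, array weights, a block for the replicate number, omission of single arrays, removal of a running median of 31 neighbouring genes and an adjusted p of 0.01.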

Additional observations from a re-analysis of the deposited data

How the results depend on the processing

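Adm, Edn1 and Ramp2 kept their direction and stayed past the threshold under all 14 alternatives run for each, with log2 differences of 1.71 to 1.93, 1.19 to 1.53 and -1.24 to -0.94. The same held for Mme (-2.39 to -2.02) and Pam (0.49 to 0.66). Ramp1 and Ramp3 kept their direction and did not pass. Differences near 0 changed sign without any call. With the running median of neighbouring genes removed this held for Calcrl (-0.0923), Ece1 (0.0886) and Ecel1 (-0.0332), with array medians subtracted for Ece1 (0.00527), Iapp (0.0472) and Edn3 (0.025), with array weights for Ednrb (-0.00914), Edn3 (0.00348) and Mmel1 (-0.0219), and with quantile normalisation for Ide (-0.0137). Vhl, called lower at -0.27, stood at 0.0429 with the running median removed. Without single arrays the ranges were -0.0298 to 0.0758 for Calcrl, -0.05999 to 0.102 for Ednrb, -0.119 to 0.0531 for Iapp, -0.0186 to 0.0706 for Ide, -0.103 to 0.0459 for Edn3, -0.0554 to 0.0567 for Ecel1 and -0.0904 to 0.0897 for Mmel1. The causes were not tested. Of 625 values of 45 other genes, namely Kdm2b and genes of the lists, 553 kept direction and side of the threshold. Another 55 kept their direction but lost their call, and 17 changed sign, of which only that of Vhl had been called. The chromosomal neighbours and the genes most correlated with Adm or Edn1 were not among the 45, nor were Vegfa, Gnaq and Gna11.

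At an adjusted p of 0.01, 2536 genes passed (1227 higher, 1309 lower), and the calcitonin list had 1 gene higher, the G-protein list 2 lower, the other vasoactive list 0 lower and the hypoxia list 3 lower. With the replicate block 3397 genes passed, the calcitonin list had 1 higher, with Crcp at an adjusted p of 0.0754, and the G-protein list 2 lower. No label says that the replicate numbers pair the samples. The correlations of same-numbered deviations were 0.085, -0.283 and -0.093, which with 3 arrays per group cannot settle whether they do. Without single arrays the counts ran from 1 to 2 higher in the calcitonin list, 2 to 4 lower in the G-protein list, 0 to 1 lower in the other vasoactive list and 4 to 7 lower in the hypoxia list, and 3208 to 3853 genes passed in all. Array medians subtracted gave 2 lower in the G-protein list and 5 in the hypoxia list. With the running median removed, 1 gene of the calcitonin list, 4 of the other vasoactive list and 1 fibroblast marker were higher and 2 melanocyte and Schwann cell markers lower. Of the smooth muscle and pericyte markers 2 were lower without dim genes, with a trended robust variance or with array weights, and the trended variance called 1 fibroblast marker higher. No member has a second single-gene probe set, so averaging probe sets left their levels as they were. Leaving out the dimmest genes gave no value for Calcrl, Ramp3 and Ednrb. RMA gives no detection calls, so levels near the lower quartile limit Calcrl, Ramp3, Ednrb and the HA-Fbxl10 level of Ramp2.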

Other observations

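A further probe set is annotated to both Malat1, an abundant nuclear RNA, and Ramp2, and was left out because its signal cannot be assigned to either gene. Its log2 levels were 12.995, 12.994 and 13.004 on the control arrays and 12.987, 12.913 and 12.94 on the HA-Fbxl10 arrays, with a difference of -0.05, against -1.15 at the single-gene probe set of Ramp2.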
